A study of Glycine max with 30 samples.

Results

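NARK and CLV1A are duplicated receptor kinase genes of soybean (Glycine max). They were read in the leaf as the rows Glyma.12G040000 (NARK, on chromosome 12) and Glyma.11G114100 (CLV1A, on chromosome 11), which are 2 of the 55589 gene identifiers counted. Each is found once in every one of the 30 libraries. The names rest on the selection rule; the identifiers themselves could not be paired with symbols from a reference table, although RefSeq lists a gene NARK on chromosome 12 and a gene CLV1A on chromosome 11. By its identifier NARK is number 400 of 2425 genes in order along its chromosome and CLV1A number 1141 of 2570; genome coordinates were not used here.

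Legumes limit the number of their root nodules by autoregulation of nodulation. Roots that have begun to form nodules send small CLE peptides to the shoot, a receptor in the leaf perceives them, and a signal from the shoot then stops further nodulation. NARK is that leaf receptor, a leucine-rich repeat receptor kinase, and soybean mutants that lack it form far too many nodules. Both genes resemble CLAVATA1 of Arabidopsis, which restrains the size of the shoot meristem; CLV1A has been linked to shoot architecture and not to nodule number. Other genes of the pathway, such as the CLE peptide genes RIC1 and RIC2, could not be paired with identifiers and were not analysed here.

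The leaves came from plants in which RNAi transgenes target subunits of polymerases IV and V, plant-specific enzymes of RNA-directed DNA methylation. NRPD1 and NRPE1 are the largest subunits of polymerase IV and of polymerase V, in that order, and both enzymes contain NRP(D/E)2. Transgenic plants (T) were compared with non-transgenic siblings (NT) of the same family. The NRPD1-RNAi family, of cultivar Jack, had 3 plants of each kind, and the NRP(D/E)2-RNAi family and the NRPE1-RNAi family, both of Mustang, had 6 of each kind. All plants were sampled as mature leaves, so no root or nodule was measured. The promoter of the transgenes, plant age and inoculation are not given in the sources used here, and construct and cultivar cannot be told apart for NRPD1-RNAi. The identity of the tissue and the knockdown of each target stand on the labels, since marker and target genes could not be paired with identifiers.

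Libraries held 10049997 to 21763621 counts. NARK received 36 to 263 counts per library and CLV1A 43 to 236, so both were moderately expressed: over all libraries, the mean of NARK was above that of 49.9% and that of CLV1A above 40.9% of the 36186 genes that passed the expression filter. Values are given as CPM (counts scaled to a common library total) after TMM normalisation, which corrects each total for the make-up of its library. Some libraries stood apart. In the NRPD1-RNAi family, transgenic replicate 3 lay at 138 on the first principal component (53.1% of the variance), while the other 5 libraries lay between −66.8 and 23.9. In the NRPE1-RNAi family, non-transgenic replicate 4 lay at −104 and the other 5 non-transgenic libraries between 5.66 and 122. It stood apart from its own group only, since the transgenic libraries of this family lay between −115 and 40.4. Fold changes, ratios and correlations of the copies that involve these libraries are given with and without them; group means and likeness to other genes are given with them.

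In leaves of cultivar Jack, less NARK transcript was counted in every NRPD1-RNAi plant than in any non-transgenic sibling. Non-transgenic replicates 1, 2 and 3 had 10.3, 12.7 and 10.9 CPM. Transgenic replicates 1, 2 and 3 had 5.07, 4.42 and 2.76 CPM. The groups did not overlap: the lowest non-transgenic library had 102 counts and the highest transgenic one 46, from totals of like size (12461936 to 13036316 against 12204408 to 13743064). The means were 11.3 ± 1.25 and 4.08 ± 1.19 CPM (SD, n = 3). On the log2 scale this is −1.45 ± 0.27 (SE), or 2.73-fold less, with a 95% interval from −2.08 to −0.81.

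This difference did not pass the test across all genes. edgeR's quasi-likelihood test within the family gave a Benjamini-Hochberg adjusted p of 0.174 over the 30539 genes tested, of which 0.596% had a smaller p. That test called 0.0164% of the genes at an adjusted p under 0.05. Transgenic libraries lay below all non-transgenic ones in 5.44% of the tested genes, so the lack of overlap alone was not rare. The size of the difference stayed similar under every setting tried, while the call did not: DESeq2 gave an adjusted p of 0.00354 and edgeR with all 30 libraries in 1 model 0.0094, whereas adjusted p over the remaining alternatives, leave-outs included, ranged from 0.105 to 0.841. Those 2 settings also called far more genes in this family, 531 with DESeq2 and 208 in 1 model, against 5 in the main test. Without transgenic replicate 3 the log2 fold change was −1.25 ± 0.22 (SE, edgeR adjusted p = 0.105). Non-transgenic replicate 3 lay beside transgenic replicates 1 and 2 on the first principal component (−66.8 against −57.2 and −41), but its NARK level was that of the other non-transgenic plants.

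**Figure D1:**
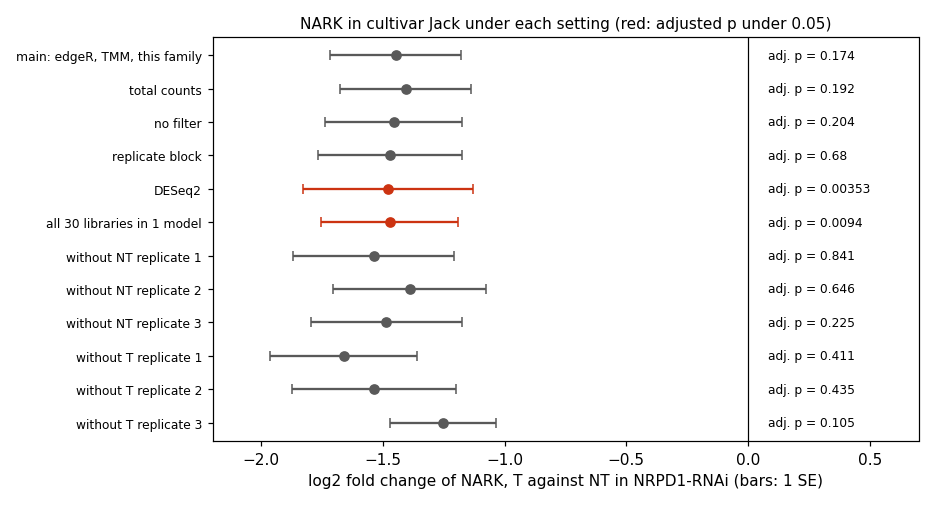
Log2 fold change of NARK between transgenic and non-transgenic NRPD1-RNAi siblings (x axis; points with bars of 1 SE) under each processing setting and with each library left out (y axis), with the adjusted p of each at the right and those under 0.05 in red. All estimates lie between −1.66 and −1.25; the adjusted p is under 0.05 with DESeq2 and with all 30 libraries in 1 edgeR model.

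CLV1A was also lower in every transgenic Jack plant, by a smaller margin. Non-transgenic replicates 1, 2 and 3 had 8.11, 9.44 and 8.43 CPM, and transgenic replicates 4.74, 5.21 and 5.51 CPM. Again the groups did not overlap. The means were 8.66 ± 0.696 and 5.15 ± 0.39 CPM (SD, n = 3). The log2 fold change was −0.71 ± 0.21 (SE), a 1.64-fold difference with a 95% interval from −1.21 to −0.21 (edgeR adjusted p = 0.412), and it was not called under any setting. Without transgenic replicate 3 it was −0.80 (edgeR adjusted p = 0.252). In bulk leaves, fewer expressing cells and less transcript per cell cannot be told apart for either gene.

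**Figure D2:**
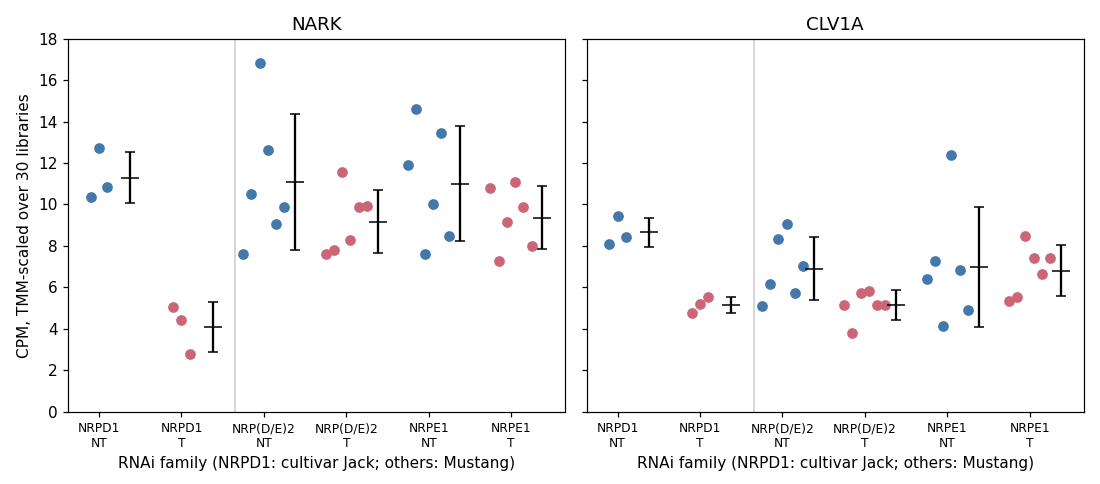
CPM of NARK (left) and CLV1A (right) in each library (y axis, TMM-scaled over all libraries) by RNAi family and transgene (x axis); blue points are non-transgenic and red points transgenic plants in order of replicate number, and black bars give the mean and SD. In Jack the transgenic plants lie at 2.76 to 5.07 CPM for NARK, below their non-transgenic siblings. In both Mustang families the groups overlap for both genes.

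In NRP(D/E)2-RNAi leaves of Mustang, neither copy was called. NARK ranged from 7.61 to 16.8 CPM (median 10.2) in non-transgenic and from 7.63 to 11.6 CPM (median 9.08) in transgenic plants, so the groups overlapped. The log2 fold change was −0.23 ± 0.19 (SE, edgeR adjusted p = 0.402), with a 95% interval from −0.64 to 0.17. Without non-transgenic replicate 3, the library with the highest NARK level, it was −0.08 ± 0.17 (SE, edgeR adjusted p = 0.778). CLV1A ranged from 5.09 to 9.06 CPM (median 6.6) in non-transgenic and from 3.79 to 5.84 CPM (median 5.17) in transgenic plants. Its means were 6.9 ± 1.54 and 5.14 ± 0.731 CPM (SD, n = 6), and 2 of the 6 non-transgenic libraries lay within the range of the transgenic ones. The log2 fold change of CLV1A was −0.39 ± 0.17 (SE), with an unadjusted edgeR p of 0.0414 and an adjusted p of 0.13; in this family 34.3% of genes had an unadjusted p under 0.05 and 15.9% of the 31773 tested genes were called.

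In NRPE1-RNAi leaves of Mustang, neither copy was called. NARK ranged from 7.6 to 14.6 CPM (median 10.98) in non-transgenic and from 7.27 to 11.1 CPM (median 9.52) in transgenic plants. The log2 fold change was −0.23 ± 0.18 (SE, edgeR adjusted p = 0.591), with a 95% interval from −0.61 to 0.16; 1.97% of the 31440 genes tested were called in this family. Without non-transgenic replicate 4 the value for NARK was −0.26 ± 0.19 (SE, edgeR adjusted p = 0.425), and without non-transgenic replicate 2 it was −0.13 ± 0.18 (SE, edgeR adjusted p = 0.77). CLV1A ranged from 4.13 to 12.4 CPM (median 6.6) in non-transgenic and from 5.32 to 8.5 CPM (median 7.03) in transgenic plants. The highest non-transgenic value belonged to replicate 4, with 236 counts, and the other 5 reached at most 7.26 CPM. The log2 fold change of CLV1A was −0.03 ± 0.24 (SE, edgeR adjusted p = 0.962). Without non-transgenic replicate 4 it changed sign to 0.21 ± 0.18 (SE, edgeR adjusted p = 0.519).

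**Figure D3:**
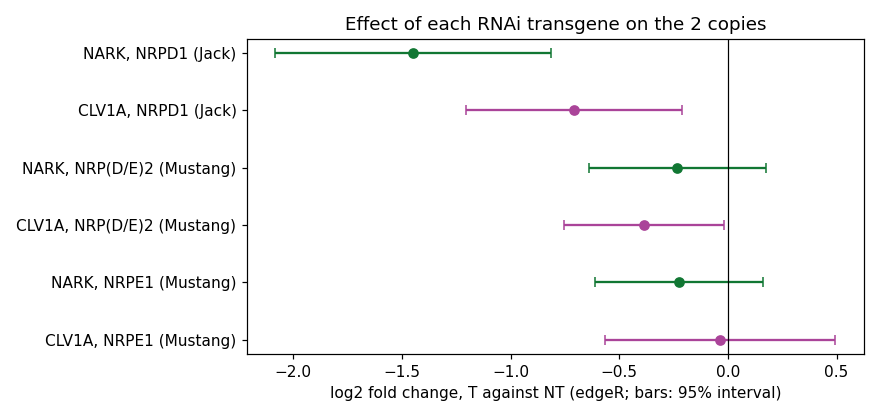
Log2 fold change (x axis) between transgenic and non-transgenic siblings for NARK (green) and CLV1A (purple) in each family (y axis), with 95% intervals from edgeR that are not adjusted for the number of genes. The Jack estimates are −1.45 and −0.71, and the 4 Mustang estimates lie between −0.39 and −0.03.

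The effect on NARK was next compared between families. In 1 model of all 6 groups, the NRPD1-RNAi effect on NARK was lower than the mean Mustang effect by a log2 difference of −1.22 ± 0.31 (SE, 95% interval −1.85 to −0.58). edgeR gave an adjusted p of 0.0883, so the difference was not called; that contrast called 0.401% of 36186 genes. The adjusted p was 0.0186 with DESeq2 and 0.0346 without NRP(D/E)2-RNAi non-transgenic replicate 3, and over all alternatives it ranged from 0.0186 to 0.289. Without NRPD1-RNAi transgenic replicate 3 the difference for NARK was −1.002 (edgeR adjusted p = 0.289), and without NRPE1-RNAi non-transgenic replicate 4 it was −1.20 (edgeR adjusted p = 0.0896). For CLV1A the same difference was −0.51 ± 0.31 (SE, edgeR adjusted p = 0.777), and −0.57 and −0.63 without those libraries, in that order (edgeR adjusted p = 0.812 and 0.44). The effects of the Mustang lines differed from each other by −0.04 ± 0.27 for NARK (edgeR adjusted p = 0.98) and by −0.39 ± 0.28 for CLV1A (edgeR adjusted p = 0.672), where 0.169% of genes were called. Without NRPE1-RNAi non-transgenic replicate 4 these values were −0.0143 ± 0.27 for NARK (edgeR adjusted p = 0.999) and −0.63 ± 0.23 for CLV1A (edgeR adjusted p = 0.311).

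Ordered by mean level after TMM scaling, NARK was highest in the non-transgenic leaves of all 3 families, at 11.3 ± 1.25 CPM in the NRPD1-RNAi family (SD, n = 3), 11.1 ± 3.27 in the NRP(D/E)2-RNAi family and 11.01 ± 2.78 in the NRPE1-RNAi family (SD, n = 6). Next came NRPE1-RNAi at 9.36 ± 1.53 and NRP(D/E)2-RNAi at 9.18 ± 1.54 CPM (SD, n = 6), and these 5 neighbours in the order all lay within their spread. NRPD1-RNAi stood last at 4.08 CPM, and its highest library (5.07 CPM) lay below the lowest Mustang library (7.27 CPM). The share of all genes with such a gap between cultivars was not counted, so it is not known how rare this is. With TMM scaling CLV1A was highest in non-transgenic Jack leaves at 8.66 CPM. Non-transgenic leaves of the NRPE1-RNAi and NRP(D/E)2-RNAi families followed at 6.98 ± 2.91 and 6.9 CPM, and NRPE1-RNAi transgenic leaves at 6.81 ± 1.22 CPM (SD, n = 6). The lowest levels of CLV1A were 5.15 CPM in NRPD1-RNAi and 5.14 CPM in NRP(D/E)2-RNAi transgenic leaves. In this order each group overlapped in range with the next. Non-transgenic Jack leaves (8.11 CPM or more) did so only through non-transgenic replicate 4 of the NRPE1-RNAi family (12.4 CPM). By median, transgenic NRPE1-RNAi leaves (7.03 CPM) lay above the non-transgenic leaves of both Mustang families (6.6 CPM). The place of non-transgenic Jack leaves depended on the scaling. With total counts they had 8.29 CPM of NARK, below all 4 Mustang groups, the transgenic NRP(D/E)2-RNAi (11.045 CPM) and NRPE1-RNAi leaves (9.50 CPM) included. For CLV1A they had 6.36 CPM, below non-transgenic NRP(D/E)2-RNAi leaves (7.60 CPM) and transgenic and non-transgenic NRPE1-RNAi leaves (6.98 and 6.93 CPM). NRPD1-RNAi leaves were last for both genes with total counts, at 3.11 CPM for NARK and 4.10 CPM for CLV1A.

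Non-transgenic plants showed no called difference between cultivars for either copy. All Jack plants were siblings of a single family, so cultivar and family cannot be told apart here. Jack against Mustang gave a log2 difference of 0.05 ± 0.21 for NARK (SE, edgeR adjusted p = 0.858) and 0.33 ± 0.22 for CLV1A (SE, edgeR adjusted p = 0.191), while 54.7% of all genes were called in this contrast. These levels depend on scaling: with total counts in place of TMM the median of all genes moved by −0.511, NARK became −0.47 ± 0.20 (edgeR adjusted p = 0.0451) and CLV1A −0.19 ± 0.25 (edgeR adjusted p = 0.505), and relative to the median gene NARK lay 0.09 higher in Jack with TMM and 0.08 with total counts, and CLV1A 0.37 and 0.36. Without NRPE1-RNAi non-transgenic replicate 4, which held the highest CLV1A level, CLV1A was higher in the Jack family by 0.46 ± 0.18 (SE, edgeR adjusted p = 0.032). No other leave-out called CLV1A. Without that same library NARK differed by 0.0354 (edgeR adjusted p = 0.901). Between the non-transgenic plants of the Mustang families, where 39.9% of genes were called, the log2 difference was 0.01 ± 0.19 for NARK and −0.02 ± 0.19 for CLV1A (edgeR adjusted p = 0.985 and 0.94), and without that library −0.0221 and 0.22 (edgeR adjusted p = 0.944 and 0.321).

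The balance between the copies needs no scaling between libraries. It is given as the share of NARK in the sum of NARK and CLV1A counts; since the counts were not divided by transcript length, the share can be compared between groups but does not say which copy is more abundant. Reads that match both copies could have been dropped or counted for either, which is not given in the sources used here. In Jack the share was 56.0%, 57.4% and 56.3% in non-transgenic replicates 1 to 3, and 51.7%, 45.9% and 33.3% in transgenic replicates 1 to 3. Every transgenic plant lay below every non-transgenic one, but the exact 95% binomial intervals, which cover counting error only, overlapped for transgenic replicates 1 (40.8% to 62.4%) and 2 (35% to 57%), and not for replicate 3 (24.6% to 43%) against the lowest non-transgenic bound of 48.5%.

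On the log2 scale the NARK to CLV1A ratio of Jack was 0.38 ± 0.04 in non-transgenic and −0.38 ± 0.56 in transgenic plants (SD, n = 3). The difference of −0.76, a 1.69-fold lower ratio, had p = 0.1 in a two-sided exact permutation test, the smallest that 3 against 3 allows (adjusted p = 0.339 over 5 ratio tests). Without transgenic replicate 3 it was −0.45. In NRP(D/E)2-RNAi the share was 58.2% to 66.9% (median 60.6%) in non-transgenic and 58.6% to 67.3% (median 65.7%) in transgenic plants, and the log2 ratio differed by 0.17 (exact permutation p = 0.203, adjusted p = 0.339). In NRPE1-RNAi the share was 44.7% to 66.8% (median 65%) in non-transgenic and 51.8% to 67% (median 58.2%) in transgenic plants. The log2 ratio there differed by −0.24 (exact permutation p = 0.359, adjusted p = 0.449). Without non-transgenic replicate 4, the single Mustang library with more CLV1A than NARK counts, the difference was −0.45 (exact permutation p = 0.0281, not adjusted). No other leave-out in this family had p under 0.05, and the library left out held the lowest ratio of the family. Transgenic replicate 1, at 67%, still lay above all 5 remaining non-transgenic libraries.

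**Figure D4:**
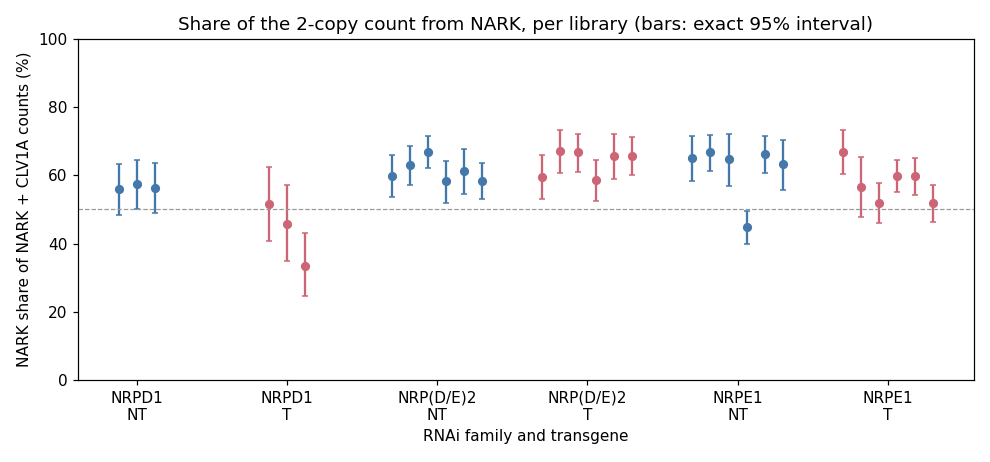
Share of NARK in the sum of NARK and CLV1A counts (y axis, %) in each library by RNAi family and transgene (x axis), blue for non-transgenic and red for transgenic plants, with exact 95% binomial intervals for counting error; the dashed line marks equal counts. NARK has more counts than CLV1A in 27 of 30 libraries, the exceptions being transgenic replicates 2 (45.9%) and 3 (33.3%) of NRPD1-RNAi and non-transgenic replicate 4 (44.7%) of the NRPE1-RNAi family.

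Among non-transgenic plants the log2 ratio was 0.38 ± 0.04 in Jack (SD, n = 3) and 0.68 ± 0.36 in Mustang (SD, n = 12), a difference of −0.30 (two-sided exact permutation p = 0.189, adjusted p = 0.339). Leaving out NRPE1-RNAi non-transgenic replicate 4, in which the ratio was −0.30, changed this to −0.39 (exact permutation p = 0.00275, not adjusted). All 3 Jack plants then lay below the remaining 11 Mustang plants. The other 14 leave-outs gave exact permutation p of 0.184 to 0.275. Since the library left out held the extreme value of the ratio tested, its removal gives no support for a difference. Cultivar and family cannot be told apart in this contrast. The control plants of the Mustang families differed by −0.04 (exact permutation p = 0.916). Without NRPE1-RNAi non-transgenic replicate 4 they differed by −0.24 (exact permutation p = 0.0476, not adjusted), and no other leave-out had p under 0.05.

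The spread of both genes between sibling plants was larger in Mustang than counting error alone gives. For NARK in non-transgenic NRP(D/E)2-RNAi siblings, the coefficient of variation of CPM was 29.5%, where the mean count gives 7.47% from counting. For CLV1A in non-transgenic NRPE1-RNAi siblings, replicate 4 included, it was 41.6% against 9.68%. These are the largest values in Mustang. For CLV1A in transgenic NRP(D/E)2-RNAi siblings it was only 14.2% against 10.5%, with replicate 2 at 3.79 CPM and the rest at 5.16 to 5.84 CPM. In non-transgenic Jack it was 11% for NARK against 9.71%, and 8.04% for CLV1A against 11.1%, so those 3 plants differed by about the counting error. In transgenic Jack plants it was 29.2% for NARK against 15.7%, and 7.57% for CLV1A against 13.7%. Between siblings of the NRP(D/E)2-RNAi family the copies varied together: after the mean of each group was subtracted, log2 CPM of NARK and CLV1A had r = 0.749 (permutation p = 0.0118, adjusted p = 0.0353 over 3 families) and rho = 0.741 (permutation p = 0.0145, adjusted p = 0.0434) over 12 libraries. Without the 2 libraries farthest from the median of NARK, r was 0.727. In the NRPE1-RNAi family r was 0.36 (permutation p = 0.365, adjusted p = 0.548) and rho 0.42 (permutation p = 0.22, adjusted p = 0.33), with r = 0.101 without the 2 farthest libraries. There too r depended on single libraries, at 0.656 without non-transgenic replicate 4 (exact permutation p = 0.0594, not adjusted) and 0.0956 without non-transgenic replicate 3. In Jack r was −0.362 (exact permutation p = 0.611, adjusted p = 0.611) and rho −0.2 (exact permutation p = 0.778) over 6 libraries. Its sign rested on single libraries: r was 0.445 without transgenic replicate 3, 0.0873 without transgenic replicate 1 and −0.85 without non-transgenic replicate 2. Without the 2 libraries farthest from the median of NARK, which leaves 4, r was 0.9999, so no relation between the copies can be read in Jack. Both values of a library share its scaling factor; the difference in r between families was not tested.

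Over all 30 libraries with group means subtracted, CLV1A was 640th of all genes in likeness to NARK, with r = 0.433 (0.491 without subtraction). The genes most like NARK were Glyma.17G243500 (r = 0.718, and 0.645 without subtraction) and Glyma.02G303200 (r = 0.706, and 0.0477 without subtraction), both of low level, with means of 2.24 and 1.21 CPM. Those most like CLV1A were Glyma.02G102900 (r = 0.754, and 0.103 without subtraction) and Glyma.15G014000 (r = 0.744, and 0.533 without subtraction). Both spread widely in non-transgenic NRPE1-RNAi plants, where CLV1A was highest in replicate 4, at 12.7 ± 18.4 and 2.86 ± 3.16 CPM (SD, n = 6). These are the largest values among 36186 genes and are given as a description.

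The genes next to the receptors were also read. Of the 5 identifiers on each side of NARK, 7 of 10 were tested in Jack and 0 were called by edgeR (0 also at an unadjusted p under 0.05); their log2 fold changes ran from −0.79 to 0.02 with a median of −0.21, so none reached the −1.45 of NARK. Around CLV1A, 9 of 10 were tested in Jack and 0 were called by edgeR (0 at an unadjusted p under 0.05), with a range from −0.72 to 0.41 and a median of −0.19, against 0.01 for all genes. In NRP(D/E)2-RNAi, 5 of the 7 tested neighbours of NARK and 5 of the 9 of CLV1A had an unadjusted p under 0.05, against 34.3% of all genes. Of the tested neighbours, 5 around NARK and 6 around CLV1A had lower values in transgenic plants. Their median log2 fold changes were −0.53 and −0.19, against −0.0134 for all genes of this family. After adjustment 1 of the 7 around NARK and 0 of the 9 around CLV1A were called, where 15.9% of all genes were. The called gene was Glyma.12G039600, which rose from 0.662 to 1.29 CPM (log2 fold change 0.97 ± 0.30, SE, edgeR adjusted p = 0.0457). No neighbour of either gene was called by edgeR in NRPE1-RNAi (0 at an unadjusted p under 0.05). Lower values in transgenic plants were found for 6 neighbours of NARK and 7 of CLV1A in Jack, and for 4 and 3 in NRPE1-RNAi. The share of lower genes among all genes was not counted, so these counts of neighbours do not show a decrease shared by the region of either gene.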

How the data were processed

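The authors deposited 1 table per library with a raw read count for each gene identifier and no header. Per the labels' protocols, the libraries held poly(A) RNA of mature leaves and were read by Illumina sequencing. The submitters' notes on processing name FastQC 0.11.5, STAR 2.5.3a and edgeR without their roles. Genome build, annotation, counting program and strandedness are not given in the sources used here. Of 55589 identifiers, 0 matched the 59048 genes of the RefSeq table.

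Analyses used R 4.3.3, edgeR 4.0.16 and DESeq2 1.42.0, with Python 3.11.15 for permutation tests. Genes were kept by filterByExpr, scaled by TMM and tested with edgeR's quasi-likelihood test over all genes, within a family for transgenic against non-transgenic siblings and in 1 model of 30 libraries for contrasts between families. A gene is called at a Benjamini-Hochberg adjusted p under 0.05. SE were derived from the F statistic. CPM per library used TMM over 30 libraries. Ratios were log2 of counts plus 0.5, tested by two-sided exact permutation over libraries. Correlations over the full Mustang families used 100000 random permutations within groups. All permutations were used in Jack and wherever a library was left out. The edgeR code was also run on simulated counts without outlying libraries, and no result here rests on that run. No pair of replicate libraries held identical counts (0 pairs). The genes and the rules for naming others (the 2 most like each gene, and called neighbours) were chosen with earlier results of these data known.

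Replicate numbers are shared between groups, and the main tests did not treat same-numbered plants as pairs. Deviations from group means of same-numbered plants correlated between −0.503 and 0.455. Values over 0.1 were found in 0 of 3 pairs in NRPD1-RNAi, 2 of 6 in NRP(D/E)2-RNAi and 3 of 6 in NRPE1-RNAi. So few pairs cannot settle whether the numbers pair plants.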

Additional observations from a re-analysis of the deposited data

Results flagged for a closer look

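In 4 groups of 6 libraries, the levels of NARK and CLV1A and the NARK share were examined for single libraries far from the rest, which is 12 sets of values; chance marks about 1 set in 20. Among the non-transgenic plants of the NRPE1-RNAi family, replicate 4 had a NARK share of 44.7%, and the nearest of the other 5 had 63.3%. Among NRP(D/E)2-RNAi transgenic plants, replicate 2 had 3.79 CPM of CLV1A, and the nearest of the other 5 had 5.16 CPM.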

How the results depend on the processing

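Alternatives were DESeq2, total count scaling, no expression filter, other pseudocounts, leaving out each library, the replicate block and, for transgenic against non-transgenic siblings, 1 model of all libraries. NARK in NRPD1-RNAi passed the threshold with DESeq2 (−1.48) and in 1 model (−1.47), and its difference from Mustang with DESeq2 (−1.27). Differences close to 0 changed sign: CLV1A in NRPE1-RNAi with total counts (0.00909) and with the replicate block (0.0332), NARK between the Mustang effects with total counts (0.0359), NARK between Mustang controls with DESeq2 (−0.00013) and CLV1A there with total counts (0.13). With total counts both copies changed sign between cultivars (NARK −0.47, CLV1A −0.19). Causes were not tested.

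With each library left out in turn, the values spanned the following ranges. The log2 difference of the NARK effect between NRPD1-RNAi and Mustang ran from −1.45 to −1.002, the NARK to CLV1A log2 ratio in NRPE1-RNAi from −0.45 to −0.17, between cultivars from −0.39 to −0.27 and between Mustang controls from −0.24 to 0.0193. The log2 fold change of NARK ran in NRP(D/E)2-RNAi from −0.31 to −0.08 and in NRPE1-RNAi from −0.31 to −0.13, and the difference of CLV1A between the Mustang effects from −0.63 to −0.28. The difference of CLV1A ran in NRPE1-RNAi from −0.15 to 0.21 and between cultivars from 0.23 to 0.46, NARK between cultivars from −0.0778 to 0.129, NARK between the Mustang effects from −0.14 to 0.12, and NARK and CLV1A between Mustang controls from −0.15 to 0.10 and from −0.15 to 0.22. The correlation of the copies ran from −0.85 to 0.45 in Jack and from 0.0956 to 0.656 in NRPE1-RNAi.

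With the replicate block no difference of NARK or CLV1A passed the threshold, and it gave −1.47 (adjusted p = 0.68) for NARK in NRPD1-RNAi; with it 0, 2198 and 293 genes were called in NRPD1-RNAi, NRP(D/E)2-RNAi and NRPE1-RNAi, against 5, 5037 and 618 without. DESeq2 called 531, 8058 and 1976 genes, and 1 model of all libraries 208 and 1415 in NRPD1-RNAi and NRPE1-RNAi. Leaving out 1 library gave 0 or 1 call in NRPD1-RNAi, or 54 without transgenic replicate 3. In NRP(D/E)2-RNAi it gave 3220 without non-transgenic replicate 4 and 3060 and 2921 without transgenic replicates 2 and 3, and in NRPE1-RNAi 2102 without non-transgenic replicate 4. At 36 to 46 NARK counts in NRPD1-RNAi plants, counting error alone is 15.7% of the mean.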
